A study of Homo sapiens with 19 samples.

Results

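Of 30066 cells kept from the 6 libraries of the OA experiment, 17254 met a rule built on 5 transcripts of the liver lineage: AFP (alpha-fetoprotein, a plasma protein of the fetal liver), AMBP (the precursor of alpha-1-microglobulin and bikunin), AGT (angiotensinogen), FGB (the fibrinogen beta chain) and SERPINA1 (alpha-1-antitrypsin). These cells were selected on their measured values. A cell had to hold at least 500 detected genes, at most 20% mitochondrial counts, and at least 5 unique molecular identifiers (UMIs, each standing for 1 captured transcript) of the 5 genes together, making up at least 0.3% of its UMIs. They are called marker-positive cells here. The same filter on cells, without the marker rule, kept 120240 cells in all 19 libraries of the series.

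The cells came from human liver organoids, spheres of liver-directed tissue differentiated from W01, an established pluripotent stem cell line of WiCell with a wild-type genotype. All 6 libraries were taken on day 25 from organoids kept on an orbital shaker. The untreated group (labelled as having no treatment) had 2 libraries, the OA group received 500 µM OA and had 2, and the group labelled as the control for OA had 2. The labels spell out neither OA nor what the control received. They describe treatment of shaker organoids as 5 days after 20 days of culture. Everything came from 1 line. The labels do not say that replicates were separate cultures, so a p-value measures only the spread between these libraries, which may be technical.

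Hepatocytes make most plasma proteins, package triglyceride with apolipoproteins, oxidise fatty acids in mitochondria and peroxisomes, and store the excess in lipid droplets coated by perilipins. Early in development the hepatoblast, a common progenitor of hepatocytes and bile duct cells, makes AFP and SERPINA1. The fetal gut epithelium is a near relative that also makes AFP, SERPINA1, apolipoproteins and fatty acid binding proteins, so these transcripts alone do not separate the tissues. CDX1 and CDX2, transcription factors of the intestine, and surface genes such as VIL1 and CDH17 mark the gut side.

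Library depth ran from 31340559 to 57230502 UMIs, and the marker-positive cells held 22205750 to 44758193 of them. The median per marker-positive cell was uneven, with 5031 and 2502 UMIs in untreated, 6882 and 17970.5 UMIs in control and 10574 and 7538 UMIs in OA libraries. Their median mitochondrial share was 5.23 to 9.22%. Pairs of libraries shared 4 to 20 cell barcodes. Scrublet, a doublet caller, marked 0 cells in 5 libraries and 26 in the second control library at its automatic threshold, so its calls were not used, and leaving out the highest-scoring cells is given as an alternative.

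Marker-positive cells made up 45.6% (exact 95% binomial interval 44.6% to 46.6%, counting error only) and 64.8% (63.6% to 66.1%) of the kept cells in the untreated libraries. The control libraries held 52.2% (50.8% to 53.5%) and 39.6% (37.9% to 41.4%). With OA the shares were 77.8% (76.3% to 79.3%) and 85.1% (83.8% to 86.3%), both above the other 4 libraries. The group means were 55.2% ± 13.6 in untreated, 45.9% ± 8.89 in control and 81.5% ± 5.15 in OA libraries (SD, n = 2). After every cell was thinned to 2000 UMIs the means were 58% ± 14.1, 48.4% ± 7.54 and 82% ± 4.75. These shares are a description with no test, since the rule reads the measured transcripts. Cells led by fibrillar collagen were fewest in the OA libraries. Cells with at least 5 UMIs and 0.3% of COL1A1, COL1A2 and COL3A1 (3 collagen chains made by mesenchyme) numbered 4336 and 1528 in untreated, 1881 and 1023 in control and 32 and 39 in OA libraries. All kept cells numbered 9479 and 5724 in untreated, 5456 and 3095 in control and 3089 and 3223 in OA libraries. The kept cells include the collagen cells, so the shares above depend on the number of these too. No share without them is given. Marker-positive cells numbered 4324 and 3710 in untreated, 2847 and 1226 in control and 2404 and 2743 in OA libraries. Other epithelial cells, defined below, numbered 579 and 328 in untreated, 384 and 245 in control and 513 and 352 in OA libraries. The higher share of kept cells with OA is therefore no measure of a higher share among epithelial cells.

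The 5 genes contributed very unequally, and in different proportion in each group. SERPINA1 gave 70.1 and 70.2% in untreated, 93.5 and 91.1% in control and 40.4 and 55.9% in OA libraries of the 5 genes' UMIs in marker-positive cells. AFP gave 24.9 and 25.3% in untreated, 4.32 and 6.43% in control and 54.5 and 39.9% in OA libraries. The control cells therefore met the rule almost wholly on SERPINA1, whereas in OA cells AFP was about as abundant. FGB gave 1.53 to 4.29%, AMBP 0.323 to 0.911% and AGT 0.0853 to 0.543% per library. Only 0.527 to 5.18% of marker-positive cells would have met the rule on AMBP, AGT and FGB alone. As CPM, the summed counts scaled to each library's total, AFP stood at 4147 and 2919 CPM in untreated, 661 and 964 CPM in control and 6994 and 5338 CPM in OA libraries. SERPINA1 ran the other way, with 11672 and 8111 CPM in untreated, 14293 and 13660.3 CPM in control and 5189.5 and 7476 CPM in OA libraries. The median share of UMIs from the 5 genes together was close in all libraries (0.921 to 1.23%). These values chose the cells and carry no test. When SERPINA1 was left out of the rule, a choice made after seeing the data, the share of kept cells was 19.4% ± 3.23 in untreated, 3.57% ± 0.476 in control and 45.8% ± 2.27 in OA libraries (SD, n = 2), or 1624 and 1242 in untreated, 213 and 100 in control and 1465 and 1425 in OA libraries as cells.

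**Figure D1:**
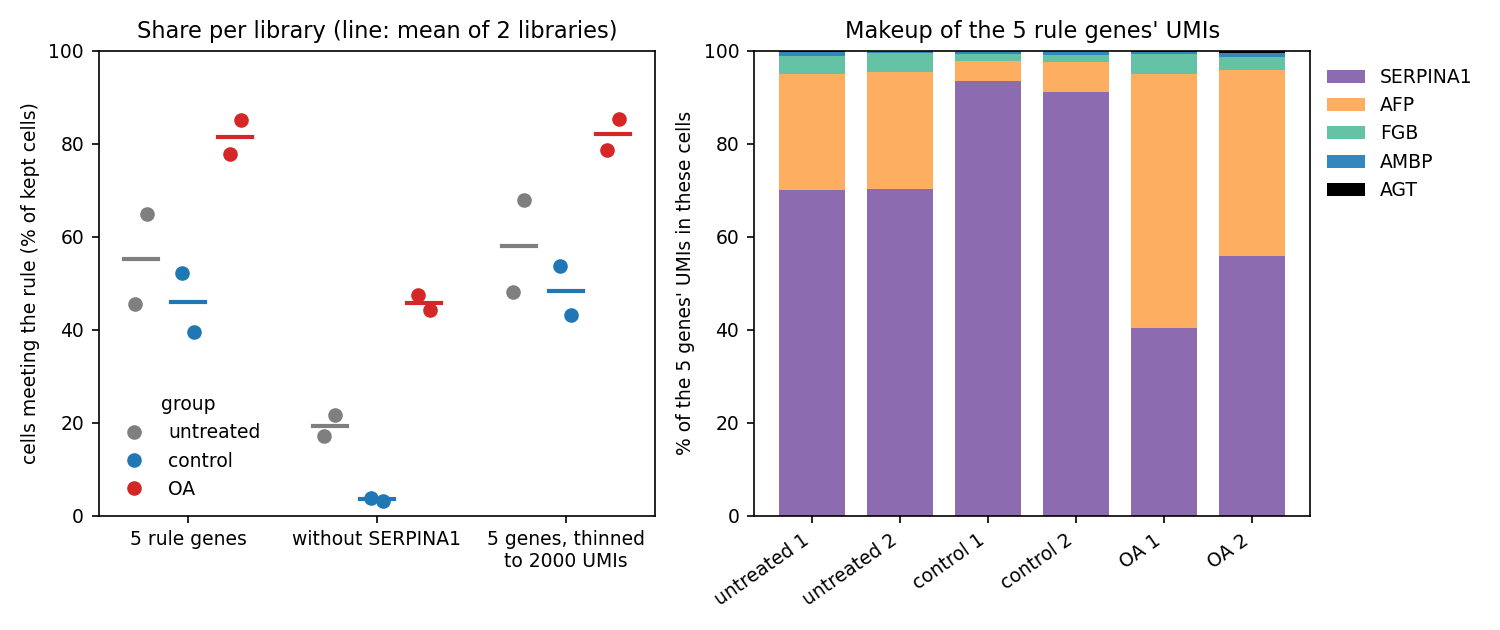
Left, share of kept cells (%) meeting the rule in each library (points) with the group mean (line), under the rule with all 5 genes, without SERPINA1, and after thinning each cell to 2000 UMIs. Right, percentage of the 5 genes' UMIs from each gene in marker-positive cells of each library. Both OA libraries lie above the other 4 on the left, and AFP (orange) takes 4.32% and 6.43% in control but 54.5% and 39.9% in OA libraries on the right. The kept cells include collagen cells, which were fewest in the OA libraries.

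The label of hepatocyte-like cells held only in part against markers that the rule did not use. Of 9 other hepatocyte markers 7 reached at least 5 CPM in every library. APOA1 and APOA2, the main proteins of high-density lipoprotein, were high, with 1064 and 610.1 CPM in untreated, 459 and 639 CPM in control and 3036 and 1915 CPM in OA libraries for APOA1. TTR (transthyretin) stood at 1756 and 1138 CPM in untreated, 753 and 640.0 CPM in control and 2798 and 1478 CPM in OA libraries. ALB (albumin, the most abundant plasma protein of the mature liver) was low without OA, with 63.5 and 26 CPM in untreated, 31.7 and 14 CPM in control and 823 and 354 CPM in OA libraries. AHSG (fetuin-A) was at 0 to 0.149 CPM and TF (transferrin) at 0.067 to 0.54 CPM, both at or near 0, and APOH was at 3.06 to 7.65 CPM. Gut markers were present beside them. Of 17 gut epithelial markers 14 reached 5 CPM in marker-positive cells of every library, and their summed level was 2527 and 4949.5 CPM in untreated, 3436 and 2542 CPM in control and 9249.6 and 7906 CPM in OA libraries. CDX2 was found at 65.1 and 93.2 CPM in untreated, 56.6 and 50.1 CPM in control and 56.5 and 52.7 CPM in OA libraries and TFF3, a secreted gut peptide, at 1528 and 2537 CPM in untreated, 1850.2 and 1296 CPM in control and 1322 and 1211 CPM in OA libraries. All 11 ductal markers reached 5 CPM as well, among them EPCAM and KRT19, general markers of simple epithelium. At 2000 UMIs per cell, 38.2 and 63.2% in untreated, 51.6 and 35.5% in control and 65.7 and 51.5% in OA libraries of marker-positive cells held a UMI of CDX1, CDX2, CDH17, VIL1 or LGALS4. In the untreated libraries 32.1 and 52% held both such a UMI and a UMI of ALB, FGB, APOB or TTR. A gut UMI without these was held by 6.16 and 11.2%. FGB is a rule gene, so this is a description. In thinned data the rule was applied to the thinned counts, and cells outside it were split into those with at least 5 UMIs of the 3 collagens, here called collagen-positive, and the rest. The share with a gut UMI was 0 to 6.39% in collagen-positive cells, which should lack these genes, and 20.2 to 56.1% in the rest. The thinned cells numbered 1165 to 3785 marker-positive and 46 to 3355 collagen-positive cells per library, and shallower cells were left out. For these reasons the cells are named by their rule and not as hepatocytes.

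Outside the 5 rule genes, 20 leading genes were ranked by their level in marker-positive cells over that in all other kept cells of the same library. APOA1 ranked first by its lowest ratio, with 5.28 to 14 times the level in other cells over the 6 libraries. TFF1, a trefoil peptide of stomach mucus, was 4.27 to 12.5 times higher. VTN (vitronectin, a plasma protein of the liver) was 3.44 to 13 times higher and RBP2, a retinol-binding protein of the small intestine, 2.86 to 43.7 times. TTR followed at 2.71 to 14.4 times. PRSS1 and PRSS2 (trypsinogens) and SPINK1 (their inhibitor) were also among the 20 leading genes, as were SELENOP, which carries selenium in plasma, and LYZ (lysozyme). CTSE (cathepsin E), TM4SF4, the chemokine CCL20 and the cytokine IL32 were there too. The others were HSD17B11, CYSTM1, SAT1, DHRS7, HLA-C and TSPAN13. SPINK1 was the most abundant of the 20, at 3953 to 8161 CPM in marker-positive and 784 to 2235 CPM in other cells. The other kept cells differed in kind between groups. Other epithelial cells, defined below, made up 579 of 5155 and 328 of 2014 of them in untreated libraries. They made up 384 of 2609 and 245 of 1869 in control and 513 of 685 and 352 of 480 in OA libraries. The range of a ratio over libraries therefore reflects different comparison cells too. All these ratios follow from a choice made on the same cells and are a description.

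The rule also drew in some cells with collagen. Of the mesenchymal cells defined above, 10.2 and 23% in untreated, 11 and 2.05% in control and 0 and 7.69% in OA libraries were marker-positive too. The median share of the 5 rule genes in mesenchymal cells was 0.00955 to 0.0381% of their UMIs, against the threshold of 0.3%. The 13 mesenchymal markers summed to 1786 and 607 CPM in untreated, 504 and 432 CPM in control and 82 and 61.6 CPM in OA libraries in marker-positive cells and to 14110.1 and 11466 CPM in untreated, 8908 and 10573 CPM in control and 681 and 551 CPM in OA libraries in other kept cells. Cells just inside and just outside the threshold overlapped in EPCAM, which the rule did not use. EPCAM stood at 683 to 1733 CPM at 0.3 to 0.35% and at 669.6 to 1796 CPM at 0.25 to 0.3%.

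**Figure D2:**
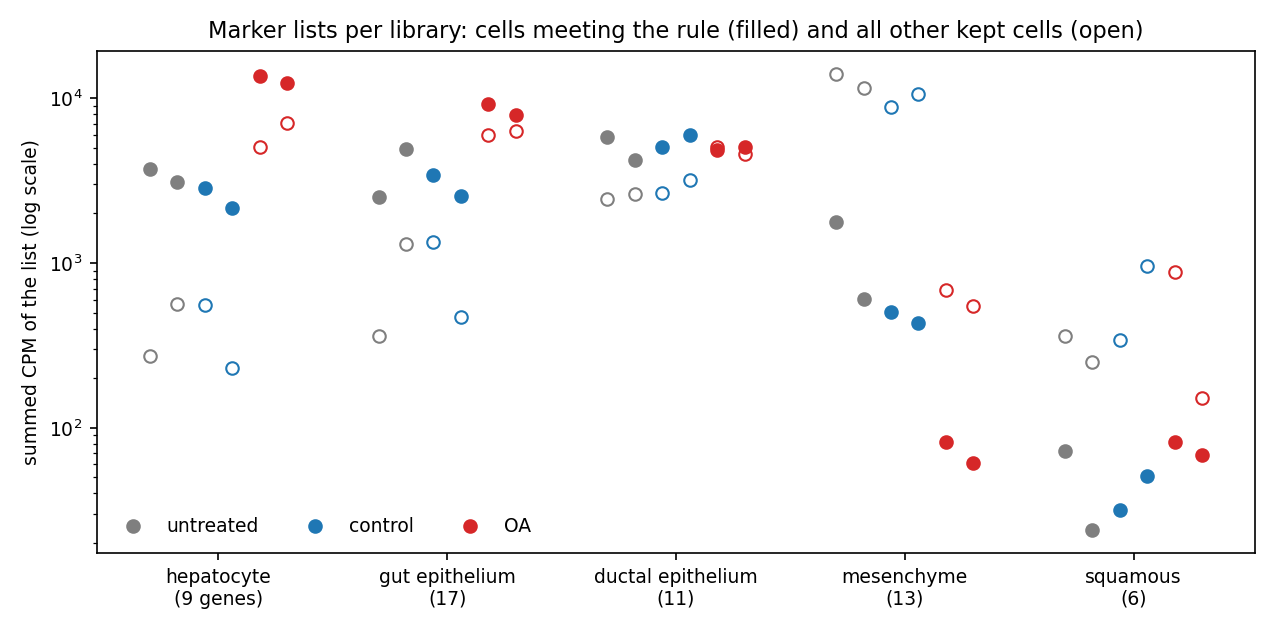
Summed level of 5 marker lists (CPM, log scale) in marker-positive cells (filled) and in all other kept cells (open), 1 point per library, coloured by group. Summed over the marker-positive cells, hepatocyte, gut and ductal markers are all present, which does not show them in the same cell, and the mesenchymal sum is 82 and 61.6 CPM with OA against 504 and 432 CPM in control.

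With OA, most tested genes of the apolipoprotein, fatty acid uptake, fatty acid oxidation, gut epithelial, chemokine and antioxidant lists were called higher in marker-positive cells, and most cell cycle genes and mesenchymal markers lower. The cell cycle and gut counts were much smaller under a narrower rule for the cells, given below. Counts were summed over the marker-positive cells of each library and tested with edgeR's quasi-likelihood test over 3 groups of 2 libraries. The log2 fold changes use edgeR's TMM scaling factors (0.979 and 1.09 in control, 0.835 and 0.876 in OA libraries). The CPM levels printed beside them do not, so the ratio of the levels need not match the fold change. Of 17307 genes tested, 7300 (42.2%) passed an adjusted p of 0.05, 3920 higher (22.6%) and 3380 lower (19.5%) with OA than in control. These shares are the background for the counts of this fit, and fits with other libraries or cells called other shares. The median log2 fold change of all genes was -0.06. Scaling by the totals of these summed counts alone, without TMM factors, gave 7331 calls, of which 2571 were higher, and moved the median of all genes to -0.33. The share of higher calls was then 35.1% in place of 53.7%. Leaving out 1 library left 3562 calls (first control library), 3073 (second control library), 3003 (first OA library) or 4321 (second OA library). The group that lost a library then held 1 sample, assumed to vary like the other groups, so calls of such fits are not replicated in that group. These 4 fits called 9.47 to 15.2% of genes tested higher and 5.81 to 8.81% lower. The rule without SERPINA1 left 3250 (13.2% higher and 9.57% lower), of which 3046 were among the 7300. Its control sums held 213 and 100 cells with 2362265 and 2460441 UMIs, against 37425368 and 26914287 UMIs in the main fit. The part of this lower depth in the smaller counts was not tested. Under that narrower rule the genes called higher were 8 of 15 tested in the list of mature metabolism, 10 of 17 in lipid oxidation, 7 of 14 in lipid droplets, 10 of 14 in fatty acid uptake, 3 of 16 among hepatocyte transcription factors, 6 of 11 in the antioxidant and 7 of 16 in the stress response list, and 8 of 12 mesenchymal markers were lower. In the gut list 5 of 17 were higher, and in the cell cycle list 3 of 15 were lower. The cells compared differ in makeup too, since the rule took in mostly SERPINA1-led cells in control and many AFP-led cells with OA. The part of this in the values below was not tested, and neither was that of depth.

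Apolipoproteins and the machinery that loads them with lipid were mostly higher. Of 12 genes tested 9 were called higher and 0 lower, with a median log2 fold change of 2.77 against -0.06 over all genes. APOA4, an apolipoprotein of intestinal chylomicrons (chr11:116820700-116823304), was at 304 and 159 CPM in untreated, 78 and 38.6 CPM in control and 4994 and 4852 CPM in OA libraries. Both OA libraries lay above all others, and the difference from control was large (log2 fold change 6.64 ± 0.52 (SE), edgeR adjusted p = 0.00045). Its neighbour APOC3, an inhibitor of triglyceride clearance (chr11:116829706-116833072), was at 111 and 87 CPM untreated, 22.7 and 38.7 CPM in control and 1479 and 1080.4 CPM with OA (log2 fold change 5.68 ± 0.32 (SE), edgeR adjusted p = 0.00035). APOB, the structural protein of very low density lipoprotein (chr2:21001429-21044073), was at 178 and 328 CPM untreated, 85.7 and 80.7 CPM in control and 1068 and 772 CPM with OA (log2 fold change 3.74 ± 0.38 (SE), edgeR adjusted p = 0.00079). In all 3 genes the untreated libraries lay between the control and the OA libraries. APOC2, which activates lipoprotein lipase, changed by 4.79 ± 0.30 (adjusted p = 0.00037) and MTTP, which transfers triglyceride to APOB, by 3.41 ± 0.46 (adjusted p = 0.0018) on the log2 scale in edgeR. APOA1 changed by 2.46 ± 0.33 (adjusted p = 0.0019) and APOA2 by 3.01 ± 0.46 (adjusted p = 0.003). APOE and APOC1 were not called (log2 fold change -0.14 and 0.69). Under the rule without SERPINA1, 8 were higher and 1 lower, the latter APOE at -0.97, and APOA4 was 3.47 rather than 6.64.

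Genes for taking up, binding and activating fatty acids followed. 12 of 14 were called higher and 2 lower (median 1.87). FABP2, the fatty acid binding protein of the intestine (chr4:119317250-119322138), was at 34.8 and 78.4 CPM untreated, 20.7 and 14.1 CPM in control and 1964 and 1267 CPM with OA (log2 fold change 6.80 ± 0.58 (SE), edgeR adjusted p = 0.00055). FABP6, the ileal bile acid binding protein (chr5:160187367-160238735), was at 0.286 and 3.69 CPM untreated and 3.21 and 3.23 CPM in control. With OA it was at 1537 and 70.4 CPM, so the libraries of the OA group differed greatly from each other (log2 fold change 8.26 ± 1.70 (SE), edgeR adjusted p = 0.0086). Without the first or the second control library FABP6 was no longer called. CD36, a fatty acid transporter (chr7:80369575-80679277), was at 0.267 and 0.892 CPM in control and 18.3 and 16.7 CPM with OA (log2 fold change 5.27 ± 0.42 (SE), edgeR adjusted p = 0.00047). ACSL5 changed by 3.80 ± 0.39 (adjusted p = 0.00082) and ACSL4 by 2.23 ± 0.16 (adjusted p = 0.00041) (edgeR), both enzymes that join fatty acids to coenzyme A. FABP1, the liver form, was already abundant in control (1972 and 1266 CPM) and was at 9731 and 8206 CPM with OA (log2 fold change 2.73 ± 0.56, adjusted p = 0.0087). The 2 genes called lower were SLC27A5 and FABP5, the latter at 372 and 321 CPM in control and 106 and 174 CPM with OA (log2 fold change -1.06 ± 0.29, adjusted p = 0.023). Without the second control library 7 genes of this list were higher.

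Fatty acid oxidation genes were called higher in 15 of 17 cases and lower in 0 (median 1.33). CPT1A, the gate of fatty acid entry into mitochondria (chr11:68754620-68844410), was at 14.3 and 18.6 CPM untreated, 8.44 and 8.36 CPM in control and 78.1 and 66.8 CPM with OA (log2 fold change 3.38 ± 0.22 (SE), edgeR adjusted p = 0.00037). CREB3L3, a membrane-bound transcription factor of liver and gut that acts on lipid genes (chr19:4153631-4173054), was at 21.2 and 32.6 CPM untreated, 14.6 and 17 CPM in control and 208 and 169 CPM with OA (log2 fold change 3.86 ± 0.28 (SE), edgeR adjusted p = 0.00041). ETFDH changed by 2.55 ± 0.18 (adjusted p = 0.00039) and HADHA by 1.45 ± 0.16 (adjusted p = 0.00099) in edgeR, both enzymes of the mitochondrial pathway. ANGPTL4 was not called (-0.29 ± 0.80, adjusted p = 0.79). The count was 9 to 15 when either control or either OA library was left out, lowest without the second control library.

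Lipid droplet genes were called higher in 10 of 16 and lower in 2 (median 1.30). PLIN2, the perilipin that coats droplets in most cells (chr9:19108375-19149290), was nearly equal in the 4 libraries without OA, at 214 and 212 CPM untreated and 197 and 222 CPM in control. It was at 974 and 881 CPM with OA (log2 fold change 2.43 ± 0.17 (SE), edgeR adjusted p = 0.00038). At 2000 UMIs per cell, 29.4 to 31.5% of marker-positive cells held a PLIN2 UMI without OA, and 72.9% and 63.9% with OA. In collagen-positive cells, which were few with OA, the share was 12.8 to 19.3% without OA and 30.8% and 54.3% with OA. In the rest it was 19.3 to 23.3% without and 53.6% and 59.2% with OA. PLIN2 was thus detected more often with OA outside the marker-positive cells too. CIDEC, which fuses droplets (chr3:9866711-9880255), was at 12.9 and 15.5 CPM in control and 128 and 108 CPM with OA (log2 fold change 3.34 ± 0.22 (SE), edgeR adjusted p = 0.00037). CIDEB, which aids lipoprotein loading, changed by 3.25 ± 0.24 (adjusted p = 0.00041) and ABHD5, an activator of triglyceride lipase, by 2.03 ± 0.21 (adjusted p = 0.00087) (edgeR). DGAT2, the last step of triglyceride synthesis, was at 24 and 14.9 CPM in control and 213 and 161 CPM with OA (3.52 ± 0.38, adjusted p = 0.00093). PLIN5 and HILPDA were called lower, PLIN5 from 0.695 and 1.23 CPM to 0.29 and 0.369 CPM, and 0 genes of the list were called lower without either control or the first OA library and 1 without the second OA library. PNPLA3, a triglyceride and retinyl ester lipase, was not called (-0.88 ± 0.37, adjusted p = 0.094). Of the fatty acid synthesis list 3 of 12 were called higher and 2 lower (median 0.33), against 22.6% and 19.5% of all genes tested. Its members included ME1 (malic enzyme) at 2.64 ± 0.24 (adjusted p = 0.00062) and ELOVL6, an elongase, at 1.91 ± 0.23 (adjusted p = 0.0013). FADS1, a desaturase, was lower (-0.74 ± 0.17, adjusted p = 0.014) and so was MLXIPL, a glucose-sensing transcription factor (-1.73 ± 0.43, adjusted p = 0.017), but neither was called when any 1 control or OA library was left out. FASN, fatty acid synthase, was not called (-0.43 ± 0.42, adjusted p = 0.44).

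**Figure D3:**
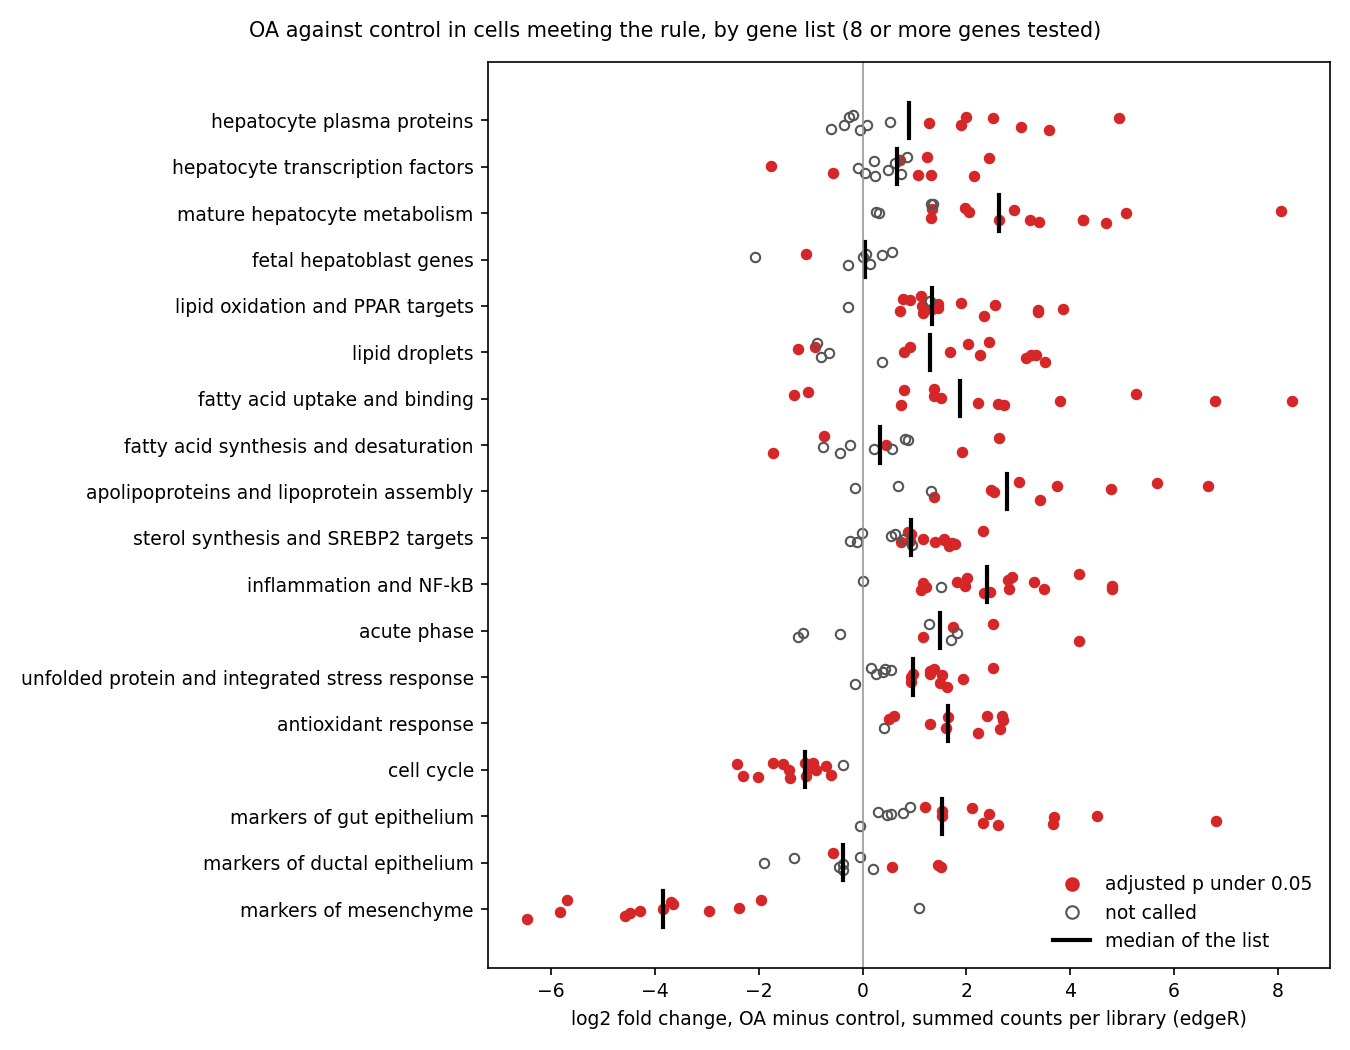
Log2 fold change of OA against control (edgeR, TMM scaling) for each tested gene of 18 lists, 1 point per gene, filled where the adjusted p was under 0.05, with the list median as a bar. Apolipoprotein, fatty acid uptake, oxidation, inflammation and gut lists lie to the right, with medians of 2.77, 1.87, 1.33, 2.40 and 1.53, and the cell cycle and mesenchyme lists to the left, at -1.11 and -3.85.

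Of the plasma proteins outside the rule 7 of 14 were called higher and 0 lower (median 0.90). ALB (chr4:73397114-73421482) was at 63.5 and 26 CPM untreated, 31.7 and 14 CPM in control and 823 and 354 CPM with OA (log2 fold change 4.94 ± 0.68 (SE), edgeR adjusted p = 0.002). Both OA libraries lay above all 4 libraries without OA. At 2000 UMIs per cell, 27.5% and 19.5% of marker-positive cells held an ALB UMI with OA and 1.12 to 5.29% without. In collagen-positive cells of the same libraries the share was 0 to 0.209%, and in the rest 0 to 0.347% without OA and 4.18% and 1.42% with OA. RBP4, the plasma carrier of retinol, was at 203 and 209.8 CPM untreated, 139 and 76.1 CPM in control and 569 and 456 CPM with OA (log2 fold change 2.50 ± 0.34 (SE), edgeR adjusted p = 0.0019). TTR (chr18:31557009-31598833) was at 753 and 640.0 CPM in control and 2798 and 1478 CPM with OA (log2 fold change 1.89 ± 0.36 (SE), edgeR adjusted p = 0.0063), but the untreated libraries, at 1756 and 1138 CPM, overlapped the OA range. The TTR call was lost without the second control library. PLG (plasminogen) was called at a low level, 1.04 and 0.78 CPM in control and 7.53 and 5.14 CPM with OA (3.05 ± 0.34, adjusted p = 0.001). VTN and ITIH2 were not called (-0.26 and -0.05), and neither were the fibrinogen chains FGA (0.07) and FGG (-0.61). This list depended on the rule. Under the rule without SERPINA1, 2 were higher and 3 lower, ALB was 2.03, TTR turned to -0.18 and PLG was no longer called. Without the second control library 3 genes were higher, and without the first OA library 4.

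Transcription factors of the hepatocyte were mixed, with 6 of 16 called higher and 2 lower (median 0.66). NR1H4, the bile acid receptor FXR (chr12:100473708-100564414), was at 14.9 and 17.4 CPM untreated, 16.2 and 11.7 CPM in control and 76.1 and 49.3 CPM with OA (log2 fold change 2.43 ± 0.31 (SE), edgeR adjusted p = 0.0015). NR5A2 changed by 1.32 ± 0.15 (adjusted p = 0.0011) and CEBPB by 1.25 ± 0.15 (adjusted p = 0.0011) (edgeR). FOXA2, a pioneer factor of endoderm, was lower, 19.9 and 33.1 CPM in control and 4.78 and 8.09 CPM with OA (-1.76 ± 0.28, adjusted p = 0.0035), with the untreated libraries at 17.9 and 18.2 CPM. HNF4A, the central factor of liver and gut epithelium, was not called (0.74 ± 0.57, adjusted p = 0.33), nor was ONECUT2 (0.62 ± 0.22, adjusted p = 0.06). The higher calls were 3 in each fit without 1 control or OA library. Genes of mature liver metabolism were called higher in 13 of 17 tested and lower in 0 (median 2.63), but at low levels. PCK1, of glucose synthesis, was at 2.94 and 2.6 CPM in control and 54.4 and 65.9 CPM with OA (log2 fold change 4.70 ± 0.34 (SE), edgeR adjusted p = 0.00041). CYP3A5, a drug-metabolising P450, was at 8.39 and 9.88 CPM in control and 89.3 and 69.4 CPM with OA (3.40 ± 0.22, adjusted p = 0.00037). UGT1A1, which conjugates bilirubin and lies in a locus whose transcripts share their last exons, was at 0.534 and 0.483 CPM and 14.4 and 14.4 CPM (5.07 ± 0.23, adjusted p = 0.00018). G6PC, of glucose release, had no UMI in the control libraries and 0.804 and 0.875 CPM with OA, at least 18-fold higher when the control group is set at 3 UMIs. CPS1, the entry of the urea cycle, was at 2.43 and 3.42 CPM in control and 5.09 and 0.553 CPM with OA and was not called (0.26 ± 0.79, adjusted p = 0.81). The 2 OA libraries lay on opposite sides of control. With 1 OA library left, and its spread taken from the other groups, CPS1 was called lower without the first OA library (-2.14, adjusted p = 0.015 in edgeR), higher without the second (1.14, adjusted p = 0.03), and lower in cells with 0.3% to 1% of UMIs from the rule genes (-2.35, adjusted p = 0.014). CYP3A4, CYP2E1, CYP1A2, CYP7A1, CYP8B1, SLC10A1 and SLCO1B1 had too few UMIs to be tested. Gut epithelial genes were called higher with OA too, given below. Whether the calls of this list belong to liver or to gut epithelium was not tested. Of the fetal hepatoblast genes 0 of 8 were higher and 1 lower. The lower one, GPC3, a glypican of the fetal liver, was at 24.1 and 33 CPM in control and 11.5 and 10.5 CPM with OA (-1.09 ± 0.32, adjusted p = 0.031), and was lost when any 1 control or OA library was left out. SPINK1 and H19 were not called (-0.27 and 0.38).

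Of the gut epithelial genes 11 of 17 were called higher and 0 lower (median 1.53). KRT20, a keratin of mature gut epithelium (chr17:40875889-40885242), was at 25.3 and 163 CPM untreated, 23.7 and 21 CPM in control and 2246 and 1919 CPM with OA (log2 fold change 6.81 ± 0.93 (SE), edgeR adjusted p = 0.0019). At 2000 UMIs per cell 2.25% and 1.37% of control, 1.9% and 15.4% of untreated and 56.8% and 43.4% of OA marker-positive cells held a KRT20 UMI. In collagen-positive cells, which were few with OA, the share was 0 to 0.833% without OA and 1.92% and 6.52% with OA. In the rest it was 0.541 to 10.4% without and 34.8% and 45.9% with OA. MUC13, a transmembrane mucin of the gut (chr3:124905442-124953819), was at 178 and 175 CPM untreated, 57.7 and 67 CPM in control and 1356 and 977 CPM with OA (log2 fold change 4.51 ± 0.24 (SE), edgeR adjusted p = 0.00033). ANPEP, a peptidase of the brush border, changed by 2.60 ± 0.48 (adjusted p = 0.0055) and CEACAM6 by 2.10 ± 0.56 (adjusted p = 0.021) (edgeR). ANPEP was 0.21 (adjusted p = 0.74) under the rule without SERPINA1 and was not called without the second control library. The factors CDX1 and CDX2 were not called (0.91 and 0.30), nor were TFF3 (-0.05) and VIL1 (0.47). The count was 5 and 4 without the first and second control library and 5 and 8 without the first and second OA library. Under the rule without SERPINA1 it was 5 higher and 1 lower. In other kept cells of the OA libraries the gut sum was 5959.5 and 6345 CPM, so the level was high outside the marker-positive cells too. Of the ductal genes 3 of 11 were called higher and 1 lower, against 22.6% and 19.5% of all genes tested. EPCAM was at 834 and 887 CPM in control and 2051 and 1824 CPM with OA (log2 fold change 1.45 ± 0.18 (SE), edgeR adjusted p = 0.0013).

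By size of change among genes with at least 50 CPM in both libraries of the higher group, the 12 leading genes were FABP6, PSCA, KRT20, FABP2, APOA4, APOC3, ABCG2, CEACAM7, TM4SF20, ALB, GK and AADAC. PSCA, a surface protein of stomach and bladder epithelium, was at 0.19 and 0.315 CPM untreated, 0.428 and 0.78 CPM in control and 93.4 and 68.6 CPM with OA (log2 fold change 7.38 ± 0.33 (SE), edgeR adjusted p = 0.00018). ABCG2, an export pump for drugs and urate, was at 1.43 and 1.8 CPM untreated, 1.04 and 1.75 CPM in control and 61.5 and 51.6 CPM with OA (5.65 ± 0.27, adjusted p = 0.00022). CEACAM7, a surface glycoprotein of colon epithelium, changed by 5.54 ± 0.70 (adjusted p = 0.0015) and TM4SF20, a tetraspanin relative of the gut, by 5.01 ± 0.29 (adjusted p = 0.00035) (edgeR). GK (glycerol kinase) was at 5.88 and 6.54 CPM in control and 173 and 124 CPM with OA (4.86 ± 0.27, adjusted p = 0.00034). AADAC, a lipase of liver and gut, was at 10.0 and 7.02 CPM and 220.4 and 189 CPM (4.84 ± 0.39, adjusted p = 0.00047). The plot of levels by library gives all 6 values for a selection of these genes.

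**Figure D4:**
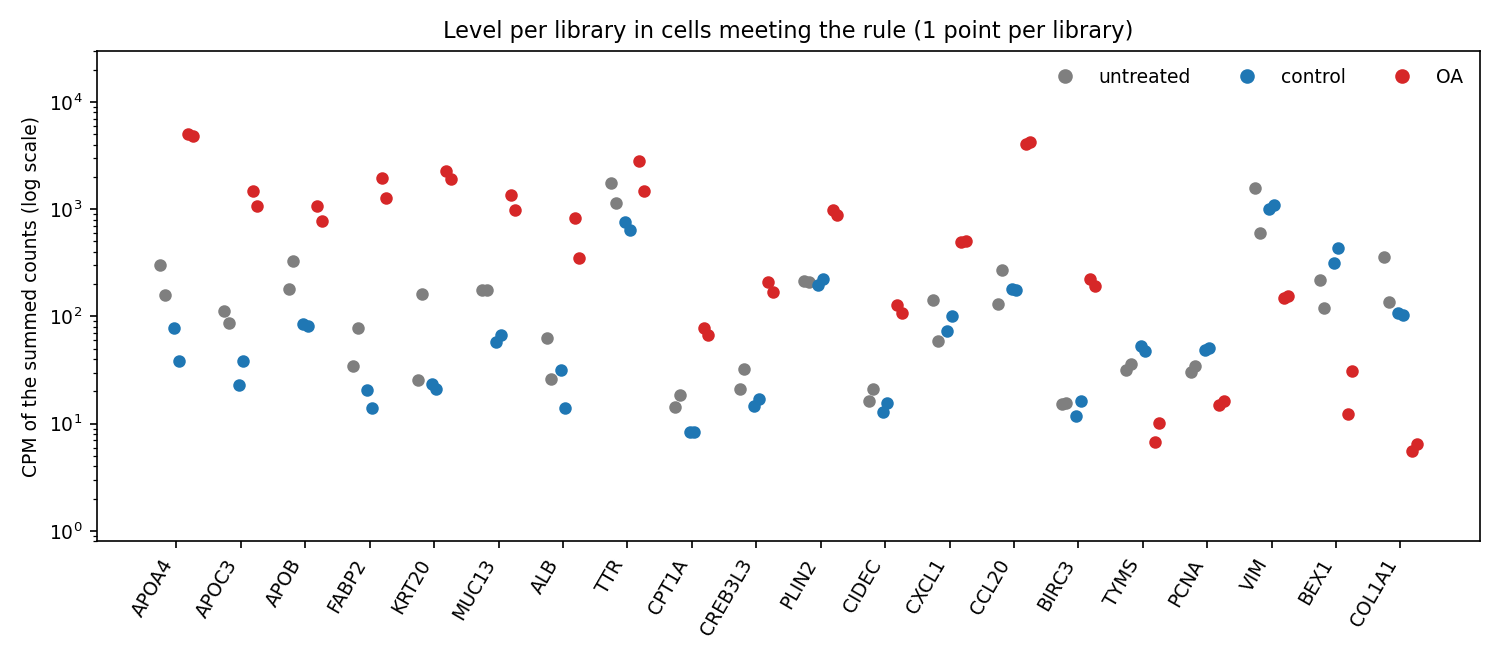
Level (CPM of the summed counts, log scale) of 20 genes in marker-positive cells, 1 point per library, coloured by group. APOA4 is at 4994 and 4852 CPM with OA and 78 and 38.6 CPM in control, PLIN2 is nearly equal in the 4 libraries without OA, and TYMS, PCNA, VIM, BEX1 and COL1A1 are lowest with OA.

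Most chemokine and NF-kB genes tested were called higher. NF-kB is a transcription factor held in the cytoplasm by the inhibitor NFKBIA and released by inflammatory and stress signals, after which it raises chemokines and its own inhibitors. 16 of 18 list genes tested were called higher and 0 lower (median 2.40), and the count was 16 when any 1 control or OA library was left out and 17 under the rule without SERPINA1. CXCL1, a chemokine that attracts neutrophils, was at 142 and 58.7 CPM untreated, 73.7 and 102 CPM in control and 499.5 and 510.1 CPM with OA (log2 fold change 2.81 ± 0.36, adjusted p = 0.0015, edgeR). CXCL8 (interleukin-8) was at 80.8 and 41.1 CPM untreated, 45.7 and 46.5 CPM in control and 233 and 300.5 CPM with OA (2.80 ± 0.28, adjusted p = 0.00079). CCL20, a chemokine of gut and liver epithelium, was at 131 and 274 CPM untreated, 180.1 and 175 CPM in control and 4032 and 4213 CPM with OA (4.81 ± 0.42, adjusted p = 0.00057). In these genes the libraries of the OA group lay close to each other and above all others.

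Promoters of several of these genes share a short sequence, printed here as a description. The 250 bases before the RefSeq start sites (build GRCh38.p14) were searched for GGAATTTCC, the core of a common NF-kB site, on both strands. RefSeq windows were matched by symbol for 17 of the 19 list genes, and 9 genes held the motif. Of these, 8 were called higher (CXCL1, CXCL2, CXCL3, CXCL5, CXCL8, ICAM1, NFKB1 and NFKBIA), and CXCL6 was not called. In the whole list 16 of 18 genes tested were higher, against 22.6% of all genes tested. The list was chosen for NF-kB, so its share with the motif is no test of a link to OA. The motif was present in 0.413% of 35116 such windows and in none of the 74 genes with a window from the plasma protein, lipid and gut lists. A pair of other motifs, both of the HNF4 type, was searched as well. CAAAGTCCA was in none of the 17 and in 3 of the 74 genes (AHSG, CIDEB and MUC13), and in 0.325% of all windows. CAAAGGTCA was in none of the 17 and in 1 of the 74 (VTN), and in 0.339% of all windows. Below are 30 bases of the gene strand around each match of GGAATTTCC, 5′ to 3′, with the motif in capitals.
CXCL1: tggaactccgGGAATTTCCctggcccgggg
CXCL2: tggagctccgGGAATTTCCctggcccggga
CXCL3: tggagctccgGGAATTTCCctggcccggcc
CXCL5: atgagttcagGGAATTTCCccagcatccca
CXCL6: ctgagttcagGGAATTTCCccagcatccca
CXCL8: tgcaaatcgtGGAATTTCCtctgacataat
NFKB1: gacgtcagtgGGAATTTCCagccaggaagt
ICAM1: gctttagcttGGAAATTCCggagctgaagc
NFKBIA: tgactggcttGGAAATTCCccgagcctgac
In ICAM1 and NFKBIA the match is on the opposite strand and reads GGAAATTCC on the gene strand. CXCL1 (chr4:73869305-73869334, plus strand), CXCL2 (chr4:74099253-74099282, minus strand) and CXCL3 (chr4:74038748-74038777, minus strand) hold the motif 78, 77 and 78 bases before the start. CXCL5 (chr4:73998748-73998777, minus), CXCL6 (chr4:73836579-73836608, plus) and CXCL8 (chr4:73740468-73740497, plus) hold it 90, 89 and 91 bases before. These 6 genes lie in 1 cluster on chromosome 4. CXCL1, CXCL2 and CXCL3 are paralogs, and so are CXCL5 and CXCL6, so the matches are not independent examples. The 120 bases before the start of CXCL1 and CXCL2 show the motif in its context.
CXCL1: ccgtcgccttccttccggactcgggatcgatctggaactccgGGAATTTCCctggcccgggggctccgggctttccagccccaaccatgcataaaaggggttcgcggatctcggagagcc
CXCL2: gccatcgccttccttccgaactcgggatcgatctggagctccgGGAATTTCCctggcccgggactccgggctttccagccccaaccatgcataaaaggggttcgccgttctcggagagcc
A match is a description of letters and not of binding.

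The genes with the motif changed by different amounts. CXCL5 was at 35.9 and 18.4 CPM untreated, 34.1 and 21.8 CPM in control and 254 and 205 CPM with OA (log2 fold change 3.29 ± 0.37, adjusted p = 0.001, edgeR). CXCL2 changed by 1.98 ± 0.24 (adjusted p = 0.0013), CXCL3 by 2.45 ± 0.19 (adjusted p = 0.00044) and NFKBIA, the inhibitor, by 2.00 ± 0.24 (adjusted p = 0.0012). Reads of CXCL1, CXCL2 and CXCL3, and those of CXCL5 and CXCL6, may be hard to assign to 1 of these similar genes, so their separate values are uncertain. ICAM1, an adhesion molecule, was at 6.47 and 5.72 CPM in control and 57.4 and 57.8 CPM with OA (3.50 ± 0.27, adjusted p = 0.00043). CXCL6 was at 27.3 and 6.21 CPM untreated, 14.3 and 24.3 CPM in control and 45.3 and 44.8 CPM with OA and missed the threshold (1.52 ± 0.54, adjusted p = 0.058). Genes without the motif in this window were called higher too. BIRC3, an inhibitor of cell death (chr11:102317484-102339403), was at 11.9 and 16.1 CPM in control and 221 and 191 CPM with OA (4.17 ± 0.19, adjusted p = 0.00018). IL32, a cytokine (chr16:3065297-3082192), was at 224 and 218 CPM and 1429 and 1255 CPM (2.87 ± 0.21, adjusted p = 0.00041). CCL2 was not called (0.02 ± 0.64, adjusted p = 0.99), and IL6 had too few UMIs to test. Acute phase genes, which the liver raises in inflammation, were called higher in 4 of 10 tested and lower in 0 (median 1.48). LCN2 (lipocalin 2) was at 7.67 and 7.1 CPM in control and 93.1 and 129 CPM with OA (4.17 ± 0.40, adjusted p = 0.00068) and C3, the central complement protein, at 70.4 and 134 CPM and 270.1 and 283 CPM (1.73 ± 0.25, adjusted p = 0.0023). SERPINA3 was not called (-0.44 ± 0.51, adjusted p = 0.52). The acute phase count was 2 to 3 without any 1 control or OA library, lowest without the first OA library, and 1 under the rule without SERPINA1, where C3 was not called.

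Antioxidant, stress response and sterol genes were called higher in part. Of the antioxidant genes 10 of 11 were called higher and 0 lower (median 1.65). GCLM, a subunit of the first enzyme of glutathione synthesis (chr1:93885199-93909456), was at 13.9 and 14.4 CPM untreated, 8.9 and 10.3 CPM in control and 42.2 and 41.4 CPM with OA (log2 fold change 2.40 ± 0.15 (SE), edgeR adjusted p = 0.00035). NQO1, a quinone reductase, was at 68.6 and 147 CPM untreated, 78.1 and 51.3 CPM in control and 357 and 337 CPM with OA (2.68 ± 0.43, adjusted p = 0.0034). SOD2 changed by 2.65 ± 0.17 (adjusted p = 0.00037) and TXNRD1 by 2.22 ± 0.18 (adjusted p = 0.00048) (edgeR), whereas CAT (catalase) was not called (0.41). The count was 6 to 8 without any 1 control or OA library, lowest without the second control or the first OA library. In the unfolded protein and integrated stress response list 11 of 17 were higher and 0 lower (median 0.98). DNAJB9, a chaperone of the endoplasmic reticulum, changed by 1.93 ± 0.15 (adjusted p = 0.00047) and HERPUD1, of protein disposal, by 1.38 ± 0.20 (adjusted p = 0.0025) (edgeR). CHAC1, a target of the integrated stress response, was at 1.15 and 1.19 CPM in control and 6.39 and 4.65 CPM with OA (2.51 ± 0.28, adjusted p = 0.001). ATF3 and ATF4 were not called (0.16 and -0.15). Of the cholesterol synthesis genes 12 of 19 were higher and 0 lower (median 0.94), led by CYP51A1, a demethylase of the pathway, at 260.2 and 285 CPM untreated, 117 and 136 CPM in control and 579.6 and 456 CPM with OA (2.31 ± 0.20, adjusted p = 0.00056). FDPS changed by 1.57 ± 0.17 (adjusted p = 0.00088). The sterol count fell to 5 and 6 without the first and second control library and to 6 without the first OA library, and the stress response count to 7 without the second control library.

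Of the cell division genes 14 of 15 were called lower and 0 higher (median -1.11). TYMS, which makes thymidylate for DNA synthesis (chr18:657653-673578), was at 31.8 and 36.3 CPM untreated, 52.8 and 47.8 CPM in control and 6.75 and 10.3 CPM with OA (log2 fold change -2.30 ± 0.23 (SE), edgeR adjusted p = 0.00077). PCNA, the sliding clamp of DNA polymerase (chr20:5114953-5126626), was at 30.3 and 34.6 CPM untreated, 48.8 and 50.9 CPM in control and 14.9 and 16.3 CPM with OA (log2 fold change -1.40 ± 0.16 (SE), edgeR adjusted p = 0.001). The mitotic kinases PLK1 (-1.73 ± 0.28, adjusted p = 0.0034) and AURKB (-2.01 ± 0.28, adjusted p = 0.002) were lower (edgeR), and AURKA was not called (-0.38). At 2000 UMIs per cell 7.71 and 15.6% in untreated, 12.7 and 9.53% in control and 4.59 and 6.13% in OA libraries of marker-positive cells held a UMI of MKI67 or TOP2A, both made in dividing cells. The second untreated library was the highest. In collagen-positive cells, which were few with OA, the share was 10.9 to 19.4% without OA and 1.92% and 8.7% with OA. In the rest it was 13 to 22.6% without and 8.17% and 8.22% with OA. Lower shares with OA were thus also seen in the rest. Under the rule without SERPINA1, 3 were lower and the list median turned to 0.54. PCNA, PLK1 and AURKB were not called there. The count was 8 and 10 without the first and second control library and 6 and 8 without the first and second OA library.

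Among called genes with at least 50 CPM in both control libraries, most of the 12 that fell furthest belong to mesenchyme or matrix. The 12 were COL1A2, COL3A1, IGFBP7, COL1A1, BEX1, TPM2, VIM, SPARC, GAL, TAGLN, IGFBP5 and TGFBI. COL1A1 (chr17:50184101-50201632) was at 359 and 136 CPM untreated, 107 and 102 CPM in control and 5.56 and 6.47 CPM with OA (log2 fold change -3.85 ± 0.41 (SE), edgeR adjusted p = 0.00087). VIM (vimentin, chr10:17228241-17237593) was at 1584 and 601 CPM untreated, 994 and 1097 CPM in control and 147 and 154 CPM with OA (log2 fold change -2.52 ± 0.38 (SE), edgeR adjusted p = 0.0027). Of 13 mesenchymal markers 12 were called lower and 0 higher (median -3.85, or -3.70 with TCF21, which had no UMI with OA, at its bound). The mesenchymal sum in other kept cells moved with them, from 8908 and 10573 CPM in control to 681 and 551 CPM with OA. The part of collagen RNA from other cells in these values was not tested. Among marker-positive cells with no UMI of the 3 collagens, VIM was -2.12, IGFBP7 -3.70, SPARC -1.44 and TGFBI -1.84. TAGLN (-1.11) and IGFBP5 (-1.87) were not called there. That choice of cells kept 2152 of 2404 OA but 1357 of 2847 control cells of the first libraries and 2474 of 2743 and 420 of 1226 of the second. Collagen decided which cells stayed, so these values are a description and do not separate the genes from collagen. Of the 13 mesenchymal markers, 9 could be tested in those cells, 4 were lower and 1 was higher (median -1.53). The higher one was LUM, a matrix proteoglycan, at 2.83 (adjusted p = 0.0054). In those cells 5864 of 14714 genes tested were called, 21.1% higher and 18.8% lower. BEX1 and GAL, genes of neural and endocrine cells, were also among the 12. BEX1 (chrX:103062651-103064171) was at 218 and 120.1 CPM untreated, 315 and 434 CPM in control and 12.3 and 31.3 CPM with OA (log2 fold change -3.83 ± 0.46 (SE), edgeR adjusted p = 0.0012) and -3.97 without collagen UMIs. GAL (galanin, chr11:68683779-68691175) was at 127 and 61.2 CPM untreated, 118 and 168 CPM in control and 23.5 and 19.9 CPM with OA (log2 fold change -2.43 ± 0.31 (SE), edgeR adjusted p = 0.0015), but -0.32 and not called under the rule without SERPINA1. TPM2 was lost without any 1 control or OA library, TAGLN likewise, and IGFBP5 without either control or the first OA library. All 3 were lost under the rule without SERPINA1. IGFBP5 was also lost with replicate number as a block, in cells with at least 2000 UMIs, and with rule genes at 1% or more. TAGLN was also lost in cells with 0.3% to 1% of UMIs from the rule genes.

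Of the markers of other cell types, several were too low to test. Of 7 endothelial markers 4 could be tested and 2 were called higher, at low levels (PECAM1 0.775 and 0.26 CPM in control and 4.54 and 3.36 CPM with OA). Of 7 blood markers 2 could be tested, with PTPRC, the general leukocyte antigen, too low to test. LYZ, which gut and other secretory epithelium also makes, was at 388 and 691 CPM untreated, 770.1 and 744 CPM in control and 485 and 510.0 CPM with OA and was not called (-0.34 ± 0.30, adjusted p = 0.39). It made up most of the summed level of the blood list (409 to 789 CPM). CD68, a lysosomal gene that epithelium also makes, was higher (2.48 ± 0.22, adjusted p = 0.0006 in edgeR). Of 5 neural and endocrine genes tested 0 were higher and 2 lower, TUBB3 (-1.19 ± 0.29, adjusted p = 0.016) and SYP (-0.81 ± 0.27, adjusted p = 0.047). SYP was lost under 10 of 18 alternatives, among them DESeq2 and each fit without 1 control or OA library. TUBB3 was lost without the second control or either OA library, so that 0 genes of the list were lower in those 3 fits. CHGA was at 0.267 and 0.26 CPM in control, 0.112 and 13.4 CPM with OA and 46.4 and 9.19 CPM untreated, so it was high in single libraries. Of 4 squamous genes tested SFN was higher (2.02 ± 0.28, adjusted p = 0.0021) and KRT6A lower (-3.01 ± 0.95, adjusted p = 0.039). The KRT6A call was lost with DESeq2, in cells with at least 2000 UMIs, without either control or the second OA library, and in cells with no collagen UMI. It was also lost in cells with 0.3% to 1% of UMIs from the rule genes. Under the rule without SERPINA1, KRT6A turned to 0.12 and was not called. Of the pluripotency genes SOX2 and DPPA4 could be tested and 0 were called.

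The control and untreated libraries, neither given OA, were compared in the same fit. Of 17307 genes 2 were called (0.0116%), both lower in control, and 3921 had an unadjusted p under 0.05. DESeq2 called 1489. HIST1H1E, a linker histone (chr6:26156329-26157115), was at 388 and 234 CPM in untreated, 34.5 and 41.9 CPM in control and 176 and 233 CPM in OA libraries (log2 fold change of control minus untreated -2.88 ± 0.24, edgeR adjusted p = 0.046). DEFB1, an antimicrobial peptide of epithelium named after its values were seen, was at 21 and 19.8 CPM untreated, 4.06 and 5.02 CPM in control and 32.6 and 30.6 CPM with OA (-2.04 ± 0.15, adjusted p = 0.046). In both genes the control libraries were the lowest of the 6. Neither call held when any 1 control or OA library was left out, while leaving out the first or second untreated library gave 1413 or 2461 calls, with 1 untreated sample and the spread of the other groups. The untreated libraries differed from each other in depth and in collagen, and they share the control libraries with the OA comparison, so the 2 comparisons are only set side by side.

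The OA effect was then compared with that in other epithelial cells, which did not meet the rule but held at least 2 UMIs of EPCAM, CDH1, CLDN4 and CLDN7 together and more of these than of the 3 collagens (245 to 579 cells a library, 2401 in all). With an interaction term for compartment and OA, 116 of 16241 genes were called (0.714%). The effect was higher in marker-positive cells for 71 and lower for 45, and 2093 had an unadjusted p under 0.05. The other epithelial cells were not free of the rule genes, which gave a median of 0.128 to 0.207% of their UMIs per library. Marker-positive cells had no limit on collagen. Their 13 mesenchymal markers summed to 504 and 432 CPM in control and 82 and 61.6 CPM with OA. The part of this in the differences was not tested. Effects given below for each compartment are differences of mean log2 CPM, here with TMM factors. The difference between them and its SE come from the edgeR model, so the values need not add up. SFN, an inhibitor of cell cycle progression, changed by 1.96 in marker-positive and -0.21 in other epithelial cells on the log2 scale (difference 2.18 ± 0.33, edgeR adjusted p = 0.027). RBP4 changed by 2.53 and 0.50 (difference 2.06 ± 0.37, adjusted p = 0.048). EMP1, a membrane protein, had effects of 3.11 and 1.31, and CD55, a complement inhibitor, of 2.98 and 1.23. IFI6, an interferon-induced gene, fell by 1.46 on the log2 scale in marker-positive cells and had an effect of -3.36 in other epithelial cells. In the other direction, VIM had effects of -2.57 and -0.29, and GAL of -2.48 and -0.54. CXCL14, a chemokine of epithelium, had effects of -1.25 in marker-positive and 1.67 in other epithelial cells. IGFBP7 had effects of -4.37 and -2.14, a difference of -2.20 that turned to 0.56 when all other kept cells, mesenchyme included, were the comparator. With that comparator the VIM difference was -0.05, and 2739 genes were called. Without the first untreated library 34 genes were called, without the second 63, without the first or second control library 84 or 77, and without the first or second OA library 210 or 679.

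**Figure D5:**
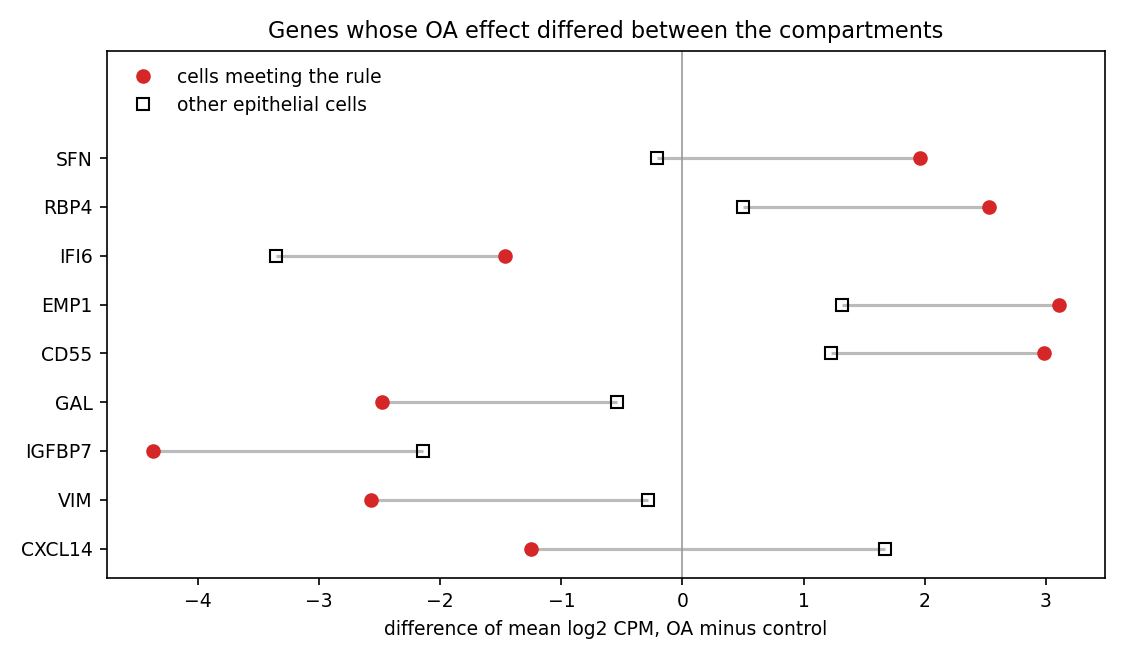
Difference of mean log2 CPM (with TMM factors), OA minus control, in marker-positive cells (filled circles) and in other epithelial cells (open squares) for the 9 genes named for the difference of effects. SFN, RBP4, IFI6, EMP1 and CD55 lie further right in marker-positive cells, and GAL, IGFBP7, VIM and CXCL14 further left.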

How the data were processed

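The deposited 10x matrices hold whole-number UMI counts that were not normalized. Per the file headers, the 6 OA-experiment matrices were made with Cell Ranger 6.0.2. The submitters' processing notes name Cell Ranger 3.0.2, bcl2fastq, Scanpy and GRCh38. Organoid cells were prepared with the 3' version 3 kit of 10x Genomics, per the labels' protocols. Deposited barcodes held at least 500 UMIs. Counts of marker-positive cells were summed per library and tested with edgeR 4.0.16 in R 4.3.3 (filterByExpr, TMM, quasi-likelihood, Benjamini-Hochberg over all genes, threshold 0.05), with 6 libraries in 3 groups. Standard errors are the size of the log2 fold change over the square root of F. The difference of effects used sums per library and compartment with a library term. DESeq2 1.42.0, no low-count filter, Scrublet-based removal, stricter cells, other rules and left-out libraries were alternatives, and the rule without SERPINA1 and the scaling without TMM were added after seeing the data. The steps were tested on simulated data. Gene positions are from GENCODE release 44, matched by gene identifier (36366 of 36601). Thinning used Python 3.11.15 and numpy 2.4.6, and Scrublet was run through scanpy 1.11.5.

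The members and gene lists were chosen with earlier results of these data known. Genes named are the 12 highest and 12 lowest called changes with at least 50 CPM in both libraries of the higher group and no overlap with control, up to 4 called genes of each list by p and up to 2 not called by level, 5 in each direction for the other comparisons, and the 20 leading genes of the profile. Some genes that meet this rule are not reported here. Genes of the lists named outside this rule were chosen after their values were seen: AHSG, APOA2, APOH, ATF4, CDX1, CDX2, CEACAM6, CXCL1, CXCL2, CXCL5, CXCL8, DEFB1, DGAT2, FABP1, FABP5, FASN, FGA, FGG, G6PC, HILPDA, MTTP, NFKB1, NFKBIA, NQO1, PLIN5, SLC27A5, TCF21 and TF.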

Additional observations from a re-analysis of the deposited data

Results flagged for a closer look

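In the 9 genes named among 116 called, the OA effect differed between marker-positive and other epithelial cells by a test of the difference itself (edgeR, adjusted p under 0.05). The effect on the log2 scale was higher in marker-positive cells by 2.18 in SFN, 2.06 in RBP4, 1.91 in IFI6, 1.82 in EMP1 and 1.76 in CD55. It was lower there, with a difference of -2.88 in CXCL14, -2.29 in VIM, -2.20 in IGFBP7 and -1.95 in GAL. The SFN and GAL calls held under every alternative run for this comparison, and that of EMP1 under all but the fits without either untreated library. The rule without SERPINA1 was not run for this comparison. For OA against control in marker-positive cells, GAL was -0.32 and not called under that rule, and SFN was 3.23. Marker-positive cells had no limit on collagen, unlike the other epithelial cells. With all other kept cells as comparator IGFBP7 turned to 0.56, and RBP4 (0.68), VIM (-0.05), CXCL14 (-0.65), CD55 (0.60) and IFI6 (0.97) were not called. Removing the highest Scrublet scores ended the calls of RBP4, IFI6, CXCL14 and VIM, and keeping only cells with at least 1000 genes and at most 10% mitochondrial counts that of RBP4. Leaving out 1 library ended the call for RBP4 (either untreated or the first control library), IFI6 (second control), CXCL14 (either untreated), CD55 (first untreated) and VIM (first untreated or first control). With DESeq2, RBP4 and VIM were not called.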

How the results depend on the processing

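Among 7300 calls of OA against control, 6812 were also made by DESeq2 (7195 in all). Leaving out 1 library gave 3003 to 9504 calls, and the rule without SERPINA1 gave 3250. For control against untreated (2 calls) the count was 1489 with DESeq2, 1284 with no filter on low counts, 89 with no TMM factors, 0 in stricter cells, 0 in cells with at least 2000 UMIs, and 0 to 2461 when 1 library was left out. For the difference of effects (116) it was 177 with DESeq2, 985 with no filter, 74 with the highest Scrublet scores removed, 2739 with all other kept cells as comparator, and 34 to 679 when 1 library was left out. The difference in share of 35.6 percentage points was 20.4 with at least 10 UMIs and 1% required. With the replicate block, 6196, 0 and 172 genes were called in the 3 comparisons. The main fit did not pair samples by replicate number. The correlation of replicate differences was -0.28 between untreated and control, -0.06 between untreated and OA and 0.17 between control and OA. These values cannot settle whether samples of the same number shared a batch, since depth and collagen differed between replicates too. Under the rule without SERPINA1, TTR was -0.18, AURKB 1.01 and KRT6A 0.12, and list medians were -0.078 for plasma proteins, -0.55 for fetal hepatoblast genes, 0.54 for the cell cycle and 0.29 for ductal markers. CPS1 was -2.35 in cells at 0.3% to 1%, where it was called, as it was when 1 of the OA libraries was left out. When 1 library was left out CPS1 ranged from -2.14 to 1.14, the fetal median from -0.62 to 0.10 and the squamous median from -2.03 to 0.90. IGFBP7 was 0.56 with all other kept cells as comparator, and the blood median -0.32 with no filter. The cause was not tested in any of these. Low counts limit genes such as G6PC.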
